A study of Mus musculus with 4 samples.

Results

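Maternally methylated imprinted control regions are short stretches of DNA that carry 5-methylcytosine on the chromosome inherited from the mother and are bare on the one inherited from the father. The mark is laid down in the oocyte, is absent from mature sperm, and is kept in nearly all body cells, where it silences or permits neighbouring genes on 1 parental copy. A body tissue such as the pancreatic islet therefore carries the mark on the maternal copy, whereas sperm should lack it. Here 10 such regions were examined, named after Snrpn, Peg3, Kcnq1ot1, Mest, Peg10, Plagl1, Nnat, Impact, Grb10 and Airn. Each was a window of 4001 to 7001 bp on the mouse build mm9, fixed by position, and every deposited peak that overlapped a window by at least 1 bp was taken. The windows held 26 of the 690963 peaks of the series, 10 in control islets, 8 in T2D islets, 4 in control sperm and 4 in T2D sperm.

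The peaks came from MeDIP-seq, in which DNA fragments recovered with an antibody against 5-methylcytosine are sequenced. The mice were ICR, an outbred strain. Control founder males received a control diet, and T2D founders, a model of type 2 diabetes, received a high-fat diet (33% of energy as fat) from weaning and a low dose of streptozotocin, a beta cell toxin, at 12 weeks, and were included at a fasting glucose of 7 to 11 mM in the following 4 weeks. Both were mated at 16 weeks with females on standard diet, so the mothers shared 1 diet. The peaks do not tell the maternal from the paternal copy. Islets came from 3-week-old offspring of control fathers (6 animals) and of T2D fathers (6 animals), and sperm from 16-week-old control and T2D founders (6 animals each) after lysis of somatic cells. Each of the 4 groups had 1 library; whether it pooled all 6 animals is not stated. Differences between groups therefore have no replicate check and are described without a test. The sperm libraries held 31053754 and 31833988 unique reads in control and T2D, and for islets no total is given in the sources used here. The files hold peaks of methylated DNA and no expression, so the tissues could not be checked against marker genes.

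Promoters lie within or beside several of these control regions. RefSeq promoter sequences (GRCm38.p6) were available for 8 of the 10 genes. The 5 printed here are those with a single listed start, each as the 250 bases before that start, 5′ to 3′ on the gene's strand, with every CpG, the dinucleotide that carries the mark, in capitals. They are shown for the CpG density just before the start of each gene. The windows of these genes were called in islets only (Peg3, Kcnq1ot1, Airn), in both tissues (Plagl1) and in sperm only (Nnat). The peaks are on mm9, so whether these bases lie under a peak or in a window was not determined. The CpG density of the windows themselves was not measured.
Peg3 (chr7:6730420-6730669, minus strand): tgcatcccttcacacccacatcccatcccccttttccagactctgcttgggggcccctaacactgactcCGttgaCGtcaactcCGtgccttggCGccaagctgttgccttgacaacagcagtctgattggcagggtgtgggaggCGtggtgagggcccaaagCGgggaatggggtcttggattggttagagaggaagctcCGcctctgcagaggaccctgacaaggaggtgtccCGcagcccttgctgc
Kcnq1ot1 (chr7:143296548-143296797, minus strand): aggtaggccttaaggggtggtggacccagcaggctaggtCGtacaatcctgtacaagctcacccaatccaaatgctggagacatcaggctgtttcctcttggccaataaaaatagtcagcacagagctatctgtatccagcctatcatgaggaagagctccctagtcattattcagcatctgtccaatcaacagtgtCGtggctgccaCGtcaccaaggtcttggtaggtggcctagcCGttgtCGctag
Airn (chr17:12741061-12741310, plus strand): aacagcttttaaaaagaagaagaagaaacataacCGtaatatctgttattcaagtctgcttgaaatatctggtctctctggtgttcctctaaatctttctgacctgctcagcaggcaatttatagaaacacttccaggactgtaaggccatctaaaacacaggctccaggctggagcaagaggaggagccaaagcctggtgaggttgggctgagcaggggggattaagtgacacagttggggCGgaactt
Plagl1 (chr10:13090582-13090831, plus strand): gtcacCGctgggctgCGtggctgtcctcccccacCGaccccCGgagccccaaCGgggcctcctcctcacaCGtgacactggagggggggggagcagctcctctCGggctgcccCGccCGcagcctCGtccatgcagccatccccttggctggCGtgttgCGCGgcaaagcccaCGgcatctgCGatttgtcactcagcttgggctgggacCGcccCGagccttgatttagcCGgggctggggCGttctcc
Nnat (chr2:157559828-157560077, plus strand): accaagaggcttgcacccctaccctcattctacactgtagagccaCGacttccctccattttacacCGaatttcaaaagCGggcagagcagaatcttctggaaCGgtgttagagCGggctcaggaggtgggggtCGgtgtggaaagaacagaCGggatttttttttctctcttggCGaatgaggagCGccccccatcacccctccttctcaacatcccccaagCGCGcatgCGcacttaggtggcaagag

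These stretches differed widely in CpG number. Plagl1 held 19 CpGs, Nnat 12, Peg3 8, Kcnq1ot1 5 and Airn 2, against a median of 6 over the 32851 listed promoters. The hexamer TGCCGC, which in its methylated form is bound by ZFP57, a zinc-finger protein that keeps imprints after fertilization, was searched on both strands. It was found 1 time in the Plagl1 stretch and not in the stretches of Peg3, Kcnq1ot1, Airn or Nnat, and 8.68% of all listed promoters held it. Among the genes with several listed starts, the start richest in CpG held 2 matches and 14 CpGs for Mest, an islet-only window. That of Snrpn (4 CpGs) and that of Grb10 (40 CpGs) held no match. Whether any of these stretches lies in its window was not determined, so the search does not show whether a control region holds the hexamer. Each match of the hexamer contains a CpG, so the features are not independent.

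In islets most of the windows held a peak, and in sperm most did not. A peak was called in both islet libraries and in neither sperm library in 6 of the 10 windows (Snrpn, Peg3, Kcnq1ot1, Mest, Peg10 and Airn). The same pattern was found in 3.84% of 528268 consecutive 5 kb tiles of the genome, and in 4.11% of 7 kb tiles. Of the other windows, Plagl1 and Grb10 had peaks in all 4 libraries, Impact had a peak in control islets only, and Nnat had peaks in both sperm libraries and in neither islet library. Peaks in both islet libraries were thus present in 8 windows (24.7% of tiles), and 6 of these 8 lacked a sperm peak, against 15.6% of the tiles with a peak in both islet libraries. A peak in at least 1 sperm library was present in 3 of the 10 windows, against 44.1% of tiles. All 3 windows had a peak in both sperm libraries, a pattern found in 27.1% of tiles. Counted by that pattern, the windows were not below the tiles. Of the islet window peaks, 6 of 10 in control and 7 of 8 in T2D scored under 100 (the caller's p-value as negative log10, times 10; the lists start at 50), as did 63.9% and 64.8% of the whole lists. With only peaks at a score of at least 100, the islet-only pattern remained in 1 window, Kcnq1ot1, and was found in 2.39% of tiles.

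**Figure D1:**
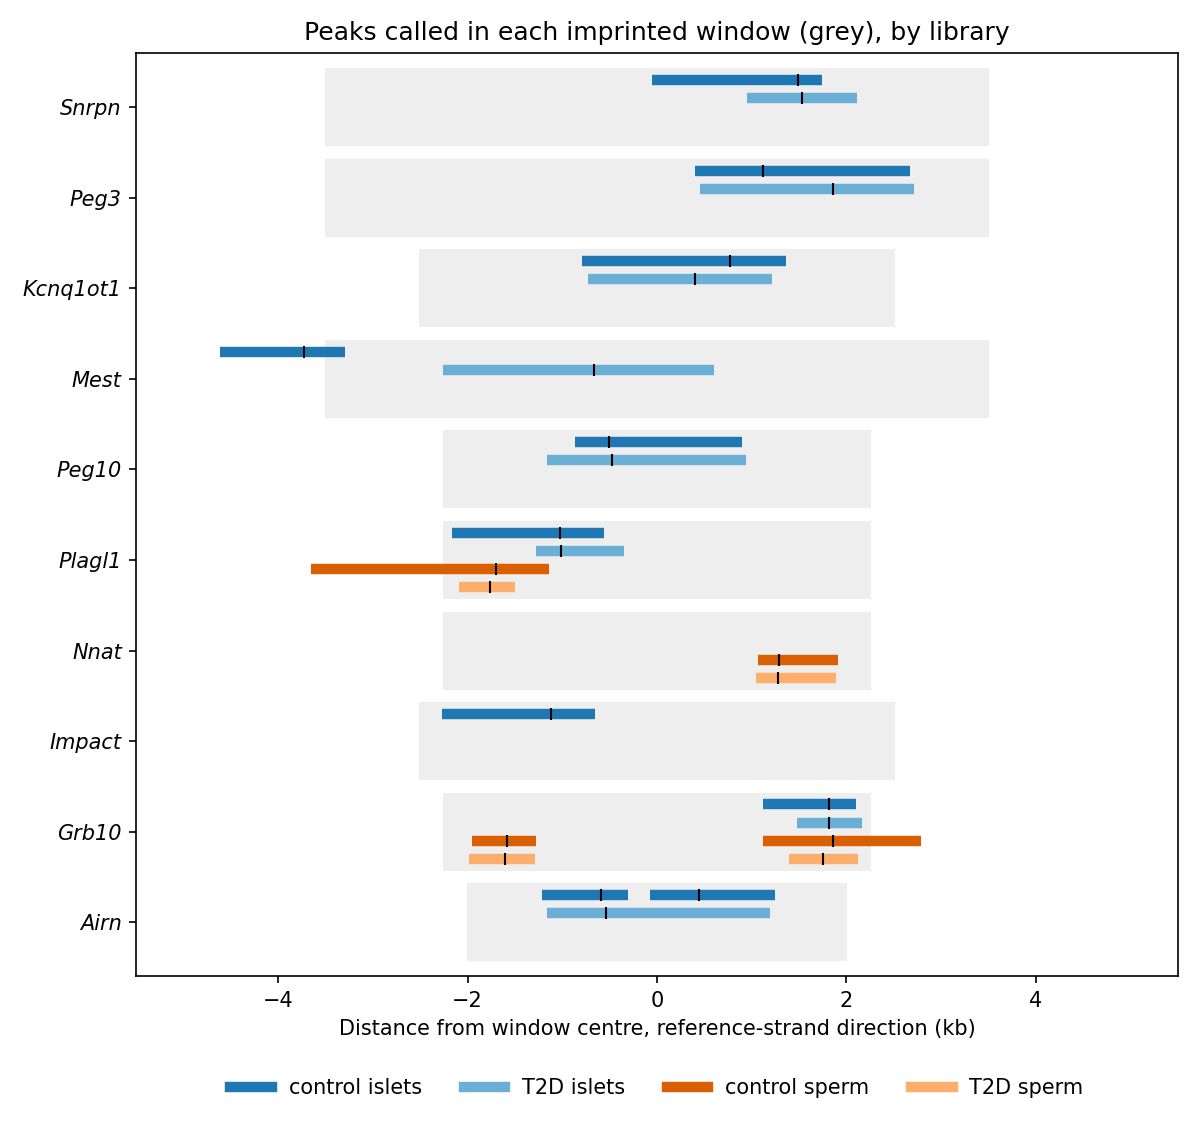
Peaks called in the 10 windows, with distance from the window centre in kb on the x axis and 1 row per window. Grey boxes are the windows, coloured bars the peaks of the 4 libraries, and black ticks the summits. Islet peaks appear in every row except Nnat, with summits on either side of the centre. The control Mest peak only touches the window's edge, and sperm peaks appear in the rows of Plagl1, Nnat and Grb10 only.

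Snrpn encodes a small nuclear ribonucleoprotein and its control region governs the imprinted Prader-Willi gene cluster. In its window (chr7:67145000-67152000) control islets had a peak of 55 tags (sequenced reads) from 67148444 to 67150240 and T2D islets one of 59 tags from 67149454 to 67150616. Their summits lay 44 bp apart, and the T2D to control ratio of tags was 1.07 (95% exact binomial interval 0.730 to 1.58). The T2D peak was the narrower, and per kb of peak control islets held 30.6 tags and T2D islets 50.7. Neither sperm library had a peak in the window. The nearest sperm peaks lay just outside its edge, by 48 bp in control and 295 bp in T2D, as did islet peaks by 112 and 202 bp.

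Peg3, a zinc-finger protein expressed from the paternal copy, gave nearly congruent islet peaks. They ran from 6681905 to 6684176 in control and from 6681951 to 6684217 in T2D within the window chr7:6678000-6685000. The control peak held 128 tags and the T2D peak 120, a ratio of 0.938 (0.725 to 1.21). Summits were 733 bp apart within these broad peaks, whereas over all matched islet peaks the median distance was 30 bp. No sperm peak was called in the window, and the nearest lay 6138 bp outside it in control and 3924 bp in T2D sperm.

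Kcnq1ot1 is a long noncoding RNA that silences its neighbours on the paternal chromosome, and its promoter is the control region. The window (chr7:150479000-150484000) held a control islet peak of 141 tags from 150480705 to 150482867 and a T2D islet peak of 159 tags from 150480775 to 150482718, a ratio of 1.13 (0.893 to 1.42). These were the only islet peaks that reached a score of 100 in both conditions, with 127.38 in control and 207.43 in T2D. The T2D peak stood at the 96.4th percentile of its list by score. Sperm had no peak in the window, the nearest lying 4013 bp outside in control and 1329 bp in T2D.

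Peg10, a gene derived from a retrotransposon and needed for the placenta, had the densest islet peak of all windows. Control islets held 167 tags from 4697390 to 4699146 and T2D islets 129 tags from 4697091 to 4699190 (window chr6:4696000-4700500). The ratio was 0.772 (0.609 to 0.978), with more tags in control although the T2D peak was the wider. Per kb of peak the control library held 95.05 tags and the T2D library 61.4. The summits lay 29 bp apart and no sperm peak was called.

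Airn is the noncoding RNA that silences Igf2r on the paternal chromosome, and its promoter lies in an intron of Igf2r. In its window (chr17:12933000-12937000) control islets had 2 peaks, of 50 tags from 12933786 to 12934700 and of 66 tags from 12934924 to 12936244. T2D islets had 1 peak over the same stretch, of 84 tags from 12933840 to 12936194. The summed ratio was 0.724 (0.540 to 0.967), and 51.9 tags per kb in control stood against 35.7 in T2D. Islet peaks covered 55.9% of the window in control and 58.9% in T2D, the highest shares among the 10 windows, and neither sperm library had a peak.

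Mest, an alpha/beta hydrolase family gene expressed from the paternal copy, counted as present in both islet libraries through peaks that did not overlap each other. The T2D peak lay inside the window (chr6:30684000-30691000) from 30685239 to 30688105 with 202 tags, the most of any window peak. The control peak ran from 30682889 to 30684207 with 92 tags and reached only 208 bp into the window. A gap of 1032 bp separated them, and each was the nearest peak of the other condition. The T2D peak had an enrichment over background of 2.96 and a score of 52.36, close to the lists' minimum of 50. With partners required to overlap, or the summit required inside the window, the islet-only pattern was found in 5 windows, without Mest.

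Impact, a regulator of translation, was the only window called in 1 islet library alone. Control islets had a peak of 55 tags from 13130226 to 13131843 in the window chr18:13130000-13135000, with an enrichment of 5.25 and a score of 72.23. T2D islets had no peak there, and their nearest peak lay 5702 bp from the control peak. A peak in exactly 1 islet library was found in 17.6% of all tiles and in 41.7% of the tiles with any islet peak, so 1 of the 9 windows with an islet peak is below that share. A missing peak means that the caller made no call, not that methylation was shown to be lower: the smallest peak in either islet list held 18 tags.

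Plagl1 encodes a zinc-finger transcription factor whose human counterpart is linked to transient neonatal diabetes. Its window (chr10:12808500-12813000) held peaks in all 4 libraries, which overlapped in part but had their summits apart by tissue. The islet peaks had their summits at 12809725 in control and 12809740 in T2D, 15 bp apart. The sperm summits lay at 12809050 and 12808983, toward the edge of the window. Control sperm reached from outside the window (12807101) to 12809614, and the T2D sperm peak (12808662 to 12809251) lay inside the control islet peak. In the window 1028 bp were under both an islet and a sperm peak, and 575 bp were under peaks of both islet libraries and of neither sperm library. Islet tags numbered 105 in control and 64 in T2D, a ratio of 0.609 (0.439 to 0.840). Sperm tags numbered 112 and 42, a ratio of 0.375 (0.256 to 0.539). In both tissues the control peak was also the wider, with 1603 against 928 bp in islets and 2514 against 590 bp in sperm. Per kb of peak the direction turned, with 65.5 tags in control and 69.0 in T2D islets, and 44.5 and 71.2 in sperm.

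Grb10, an adaptor protein that restrains insulin receptor signalling, also had a peak in every library. In its window (chr11:11924000-11928500) the shared peak had its summit at 11928067 in control islets, 11928069 in T2D islets, 11928107 in control sperm and 11928009 in T2D sperm. It held 53 and 36 tags in islets and 147 and 93 in sperm. In sperm it was among the stronger peaks of the lists, with an enrichment of 10.86 in control and 9.71 in T2D. Both sperm libraries had a further peak at the other end of the window, of 30 tags in control (11924297 to 11924969) and 25 in T2D (11924264 to 11924962), where islets had none. No library had a peak between 11924969 and 11927368, which includes the centre of the window. Of the bases under islet peaks of both conditions, 0 bp were free of sperm peaks.

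Nnat, a small endoplasmic reticulum proteolipid that is expressed in beta cells, went the other way. No islet peak was called in its window (chr2:157384500-157389000), and sperm had peaks of 31 tags in control (157387821 to 157388664) and 26 in T2D (157387800 to 157388638). Peaks in both sperm and in neither islet library were found in 4.41% of tiles. The sperm peaks were weak, at the 18.6th and 8.03rd percentiles of their lists by tags, and their summits lay 1295 and 1280 bp from the window's centre.

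**Figure D2:**
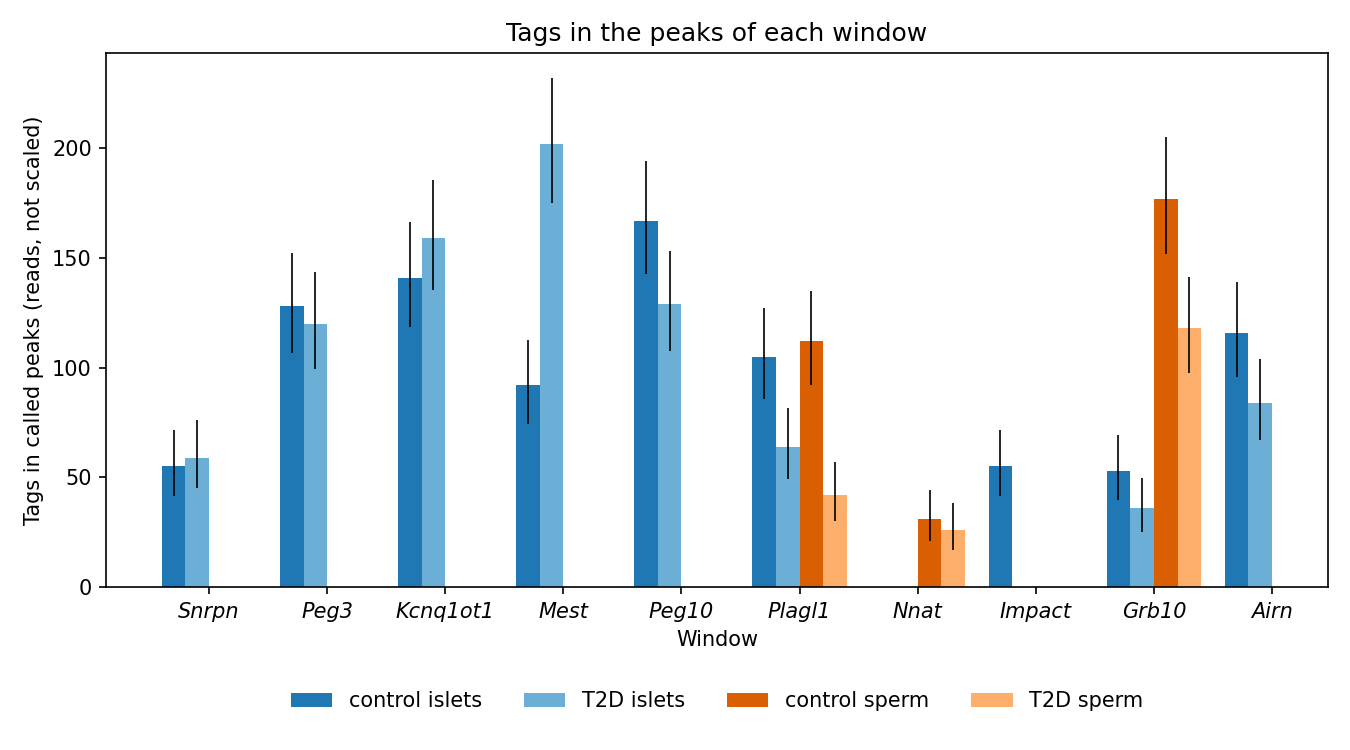
Tags (reads, not scaled to depth) summed over the peaks of each window, by library. Error bars are exact 95% Poisson intervals, which cover counting error only, and a missing bar means that no peak was called. Islet bars range from 36 tags (Grb10, T2D) to 202 (Mest, T2D), and sperm bars stand at Plagl1, Nnat and Grb10 only.

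Sperm peaks covered less of the windows than of their flanks, and islet peaks more. Peaks covered 27.6% of the window bases in control and 27.0% in T2D islets, but 7.09% and 5.40% in control and T2D sperm. In the 50 kb on each side of the windows, islet peaks covered 9.10% and 9.19% and sperm peaks 11.3% and 11.0% of the bases. Islet coverage was thus 3.04 and 2.94 times that of the flanks, and sperm coverage 0.626 and 0.492 times. Whole lists covered 6.08% and 6.31% of the effective genome size in control and T2D islets, and 7.39% in either sperm library. The control sperm share of the windows was thus near that of the genome, and the flanks of all 4 libraries lay above it. Each window had at least 3 control sperm and 5 T2D sperm peaks in its flanks. Within 1 kb of the window centres, sperm peaks covered none of the 10 windows at any position, and islet peaks covered on average 3.88 windows in control and 4.26 in T2D. Between 5 and 25 kb from the centres the averages were 1.06 and 1.09 in islets and 1.25 and 1.29 in sperm.

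**Figure D3:**
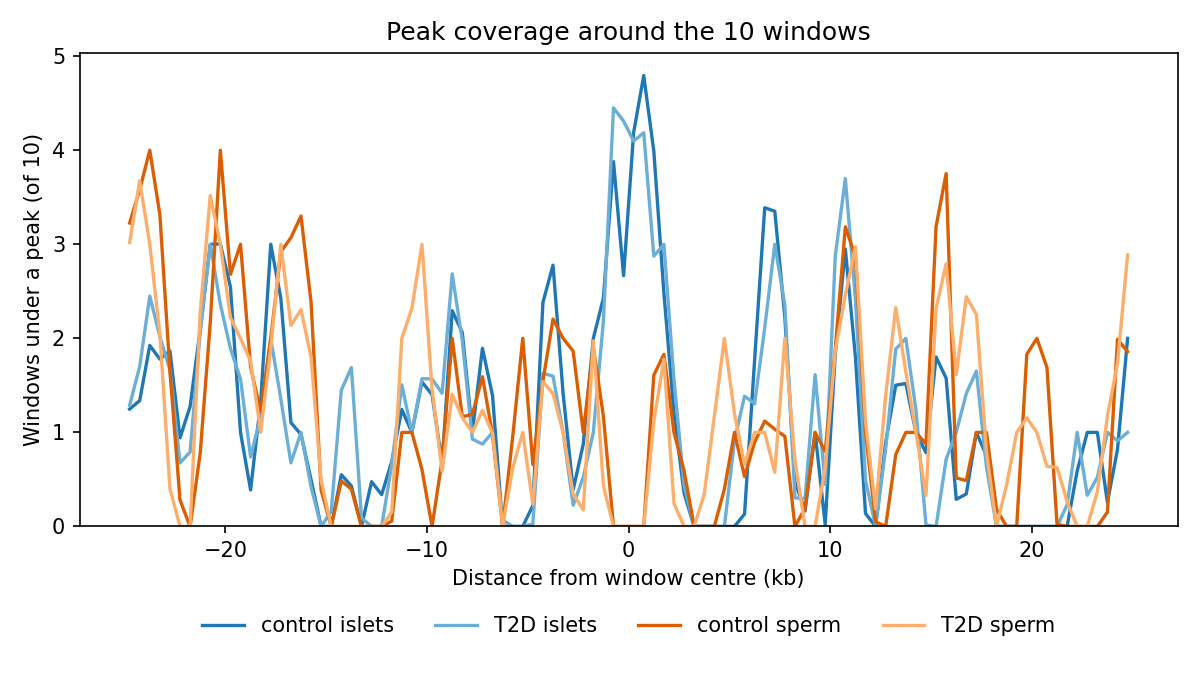
Number of the 10 windows under a peak (y axis, mean over 500 bp steps) against distance from the window centre in kb, by library. Within 1 kb of the centre the islet lines reach 4.79 (control) and 4.45 (T2D) windows while both sperm lines are at 0. The control islet line dips to 2.67 at -250 bp. Farther out the 4 lines vary over a similar range, with maxima of 3.39 to 4.00 windows between 5 and 25 kb.

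Islet peaks at these regions were broad, rich in tags and low in enrichment for their lists. In control islets the 10 peaks had a median width of 1610 bp (915 to 2272), against 865 bp over the list, and all 10 were wider than the list's median. In T2D islets the 8 peaks had a median of 2022 bp (687 to 2867), against 898 bp, and 7 were wider. Median tags were 79 and 102 in control and T2D, against 39 in either list. Enrichment was nonetheless below the list median of 7.35 in 9 of 10 control peaks and below 7.28 in 8 of 8 T2D peaks, with medians of 5.56 and 5.13. All peaks of at least 1500 bp had lower enrichments too, with medians of 5.80 in the control and 5.71 in the T2D islet list. Choosing peaks by overlap with a window favours wide ones. The sperm peaks in the windows did not share this form: 2 of 4 in control and 0 of 4 in T2D were wider than their list's median.

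**Figure D4:**
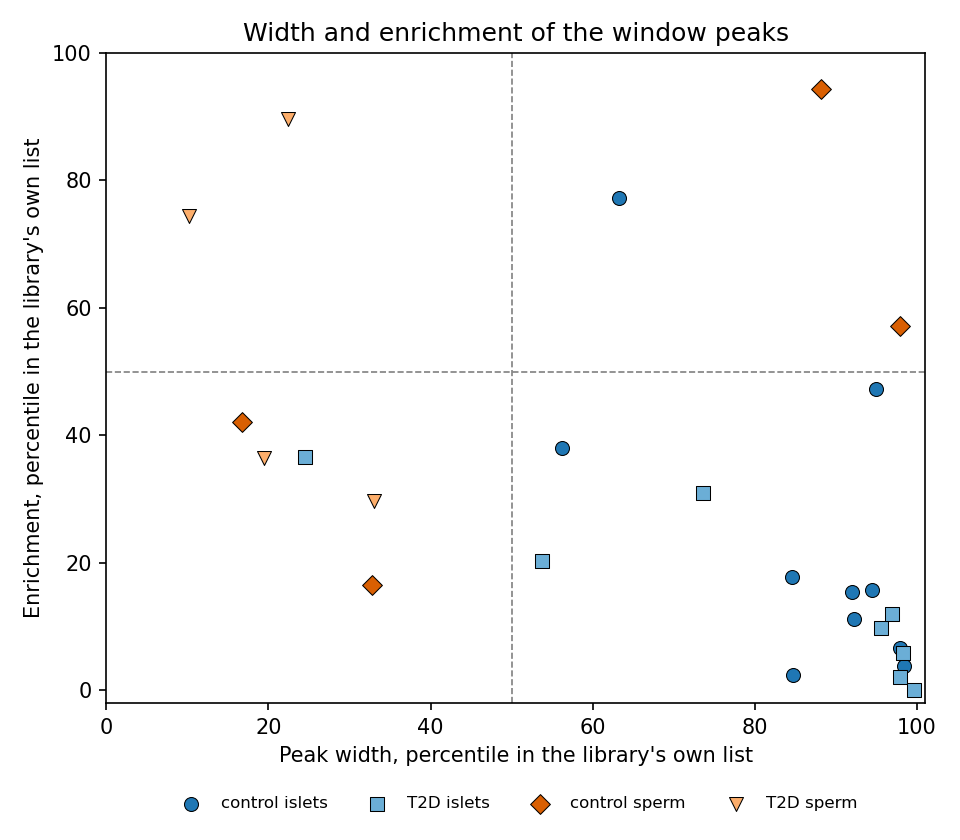
Enrichment (y axis) against width (x axis) of each window peak, both as percentiles within the library's own list, with dashed lines at the list medians. Islet points crowd toward high width and low enrichment, led by the T2D Mest peak at the 99.6th percentile of width, and the 8 sperm points are scattered.

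Between conditions, presence differed in 1 of 10 windows in islets and in 0 of 10 in sperm. Over all tiles a peak in exactly 1 library of the tissue was found in 17.6% for islets and 17% for sperm. Among tiles with any islet peak the islet share was 41.7%, against 1 of the 9 windows with an islet peak. With the summit required inside the window, the islet count was 2, with Mest added. Of the 232972 tiles with any sperm peak, 90023 had it in exactly 1 sperm library, against 0 of the 3 windows with a sperm peak. Whether these counts differ from those of the tiles was not tested. Of the 10 control islet peaks, 8 (80.0%, Wilson interval 49.02% to 94.3%) overlapped a T2D peak, against 67.3% of the whole control list. At a reciprocal overlap of 50% the number was 5 of 10, with no share of the whole list counted at that overlap. Tags were compared in the windows whose peaks overlapped, 7 in islets and 3 in sperm. The median ratio over all matched peaks was 1.00 in islets (112331 pairs) and 1.00 in sperm (123435 pairs), so tags were left unscaled. Islet tags were lower in T2D in 5 of the 7 windows (Peg3, Peg10, Plagl1, Grb10 and Airn) and higher in Snrpn and Kcnq1ot1, with a median ratio of 0.772. Among all matched islet peaks 47.1% had fewer tags in T2D. The intervals of Peg10, Plagl1 and Airn lay below 1 and those of the other 4 windows included it. Past 1.5-fold, 1 of the 7 windows was higher in control (Plagl1) and 0 in T2D, against 8.88% and 10.5% of matched islet peaks. Per kb of peak, relative to the median ratio of 0.973 over matched islet peaks, the windows past 1.5-fold were others. Peg10 was higher in control (7.35% of matched peaks) and Snrpn higher in T2D (7.07%), and Plagl1, at a ratio of 1.05 before that scaling, was not among them. In sperm all 3 windows had fewer tags in T2D (47.9% of matched sperm peaks), and 2 of 3, Plagl1 and Grb10, were at or past 1.5-fold (8.27% of matched sperm peaks), while 0 were past it with more tags in T2D (8.57%). The Grb10 ratio, from 177 and 118 tags, was 0.667 (0.524 to 0.846), and that of Nnat was 0.839 (0.478 to 1.46). Both Plagl1 and Grb10 control peaks were wider, and Grb10 sperm held 75.5 tags per kb in control and 82.5 in T2D, so the direction of the Grb10 sperm difference, like that of Plagl1, turned when tags were taken per kb of peak.

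**Figure D5:**
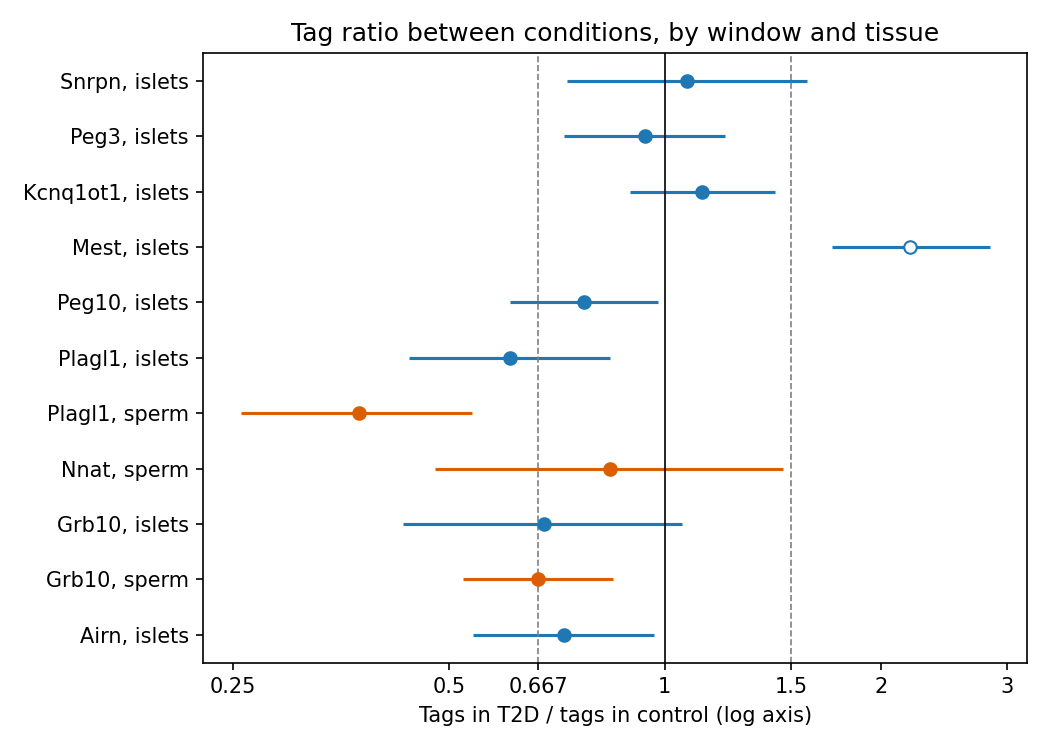
Ratio of T2D to control tags (log axis) per window and tissue, with exact 95% binomial intervals that cover counting error only. The solid line marks a ratio of 1, the dashed lines 1.5-fold, and the open circle (Mest) peaks that do not overlap each other. Plagl1 lies lowest in both tissues, at 0.609 in islets and 0.375 in sperm.

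Summed over the windows, islet peaks held 912 tags in control and 853 in T2D, a ratio of 0.935 (0.851 to 1.03). The sum depends on Mest and Impact, since without these windows it was 765 against 651, or 0.851 (0.765 to 0.946). With only peaks whose summit lay in a window it was 1.04. Sperm peaks summed to 320 tags in control and 186 in T2D, a ratio of 0.581 (0.483 to 0.699), over 5702 and 2860 bp of peaks. These are whole peaks, of which 3758 bp in control and 2860 bp in T2D sperm lay inside the windows. In control sperm the Plagl1 peak lay 44.35% inside its window and the larger Grb10 peak 67.38%, so their tags include reads from outside. Per kb of peak the islet libraries held 57.9 tags in control and 59.6 in T2D, and the sperm libraries 56.1 and 65.0.

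Other imprinted regions were set beside these windows, at mm9 positions placed from general knowledge and not from an annotation. Of 6 further maternally methylated regions, 3 (Nap1l5, Zrsr1 and Mcts2) had a peak in both islet libraries and in neither sperm library (3.84% of tiles). Zrsr1, an intronless splicing-factor gene, had islet peaks of 258 tags in control and 232 in T2D. Peg13 had peaks in all 4 libraries, Slc38a4 in T2D islets and both sperm libraries, and Inpp5f in control islets and control sperm. The 3 regions of opposite origin, methylated on the paternal copy and therefore in sperm, all had peaks in both sperm libraries (27.1% of tiles). H19 held 282 tags in control and 322 in T2D sperm and no islet peak. The Dlk1-Meg3 region had peaks in all 4 libraries, with 251 and 295 tags in islets and 395 and 403 in sperm. Rasgrf1 had peaks in both sperm and in neither islet library, a pattern thus found at 2 of the 3 paternal regions and in 4.41% of tiles. The missing islet peaks at H19 and Rasgrf1 mean that no call was made, not that islets were shown to lack methylation there. With 10 and 3 regions the difference between maternal and paternal regions was not tested.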

How the data were processed

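The authors deposited 1 peak list per library; mm9 and CASAVA 1.4 are named in the submitters' processing notes. Per the file headers of the sperm lists, MACS was run with no control library on 49 bp reads, with a p-value cutoff of 1.00e-05, a local background of 5000 bp and at most 2 reads per position. No caller is given for the islet lists in the sources used here. The deposited tags are raw counts of reads per peak. The deposited score is the caller's p-value as negative log10, times 10. The deposited fold enrichment is relative to the library's own background. Width and summit were used as deposited. Presence in a window, tiles and matches needed an overlap of at least 1 bp. Matched peaks were each other's longest overlap. Tag ratios carry exact binomial intervals and shares Wilson intervals at 95%, for counting error only, since PCR copies are not independent. Overlap steps were tested on 1 chromosome of the control islet list, against an altered copy with peaks dropped and moved and tags redrawn. Python 3.11.15, numpy 2.4.6, pandas 2.3.3 and scipy 1.17.1 were used. All 10 windows are named. The windows and lists were chosen with earlier results of these data known. Alternatives changed overlap, score, window bounds, fold, scaling and flank length.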

Additional observations from a re-analysis of the deposited data

Results flagged for a closer look

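The share of flanking bases under peaks within 50 kb of the windows moved in opposite directions between conditions in the 2 tissues. In islets it was 0.093 percentage points higher in the T2D library. In sperm it decreased by 0.36 percentage points from control to T2D. With flanks of 20 kb both directions turned, to 10.3% in control and 9.89% in T2D islets and to 11.4% in control and 11.8% in T2D sperm. With 1 library per group this difference was not tested.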

How the results depend on the processing

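No paired analysis was possible because each group had 1 library. The islet-only pattern (6 windows) was found in 1 window at a score of at least 100 and in 1 in the best 50% of each list. It was found in 5 with 50% of the peak or its summit inside the window and in 4 with windows widened by 2 kb. Apart from 7 kb tiles, a tile share under an alternative was taken only for this pattern at a score of 100 (2.39%). The other alternative counts of windows therefore have no tile share beside them. Of alternatives added after seeing the data, overlapping islet peaks gave 5, and 500 bp under both islet and no sperm peaks gave 6, with Plagl1 in place of Mest. Windows with a sperm peak numbered 5 in place of 3 when widened, with Snrpn and Kcnq1ot1 added. Windows in exactly 1 islet list (1) numbered 2 by 50% of the peak, by summit and in the best 50%, and 3 at a score of 100. The islet tag ratio of 0.935 turned to 1.04 by summit and fell to 0.351 at a score of 100, where only Kcnq1ot1 had both conditions. Including Mest, 2 windows passed 1.5-fold, 1 passed 2-fold and 0 did at a score of 100; per kb of peak (added after seeing the data) 2 passed, Snrpn and Peg10. At that score, window coverage was 9.64% in control and 3.67% in T2D islets, and 2.12% and 2.49% in sperm, whose order then turned. With 20 kb flanks, coverage was 10.3% and 9.89% in control and T2D islets and 11.4% and 11.8% in sperm, so the order of the conditions turned in both tissues. The share of control islet window peaks with a T2D partner was 50% in place of 80% at a reciprocal overlap of 50%. The whole list was not counted at that overlap. Paternal regions with peaks in both sperm lists fell from 3 to 1 at a score of 100. Since the lists hold called peaks only and islet depth is unknown, signal below the callers' limits was not measured.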
